A study of Mus musculus with 16 samples.

Results

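The libraries compared here are all 16 of the series, 8 from mice labelled p16Ink4a -/- against 8 from mice labelled p16Ink4a +/+, with sedentary and running mice in equal number on both sides. The question was which genes of the dentate gyrus differed between the genotypes in the same direction whether or not the mice had run. The tables list 24421 gene names, of which 17317 had a mean of at least 0.1 TPM (a transcript's share of all transcripts, corrected for gene length and scaled to a fixed total) and were tested.

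p16Ink4a, encoded by Cdkn2a, binds the cyclin-dependent kinases Cdk4 and Cdk6 and keeps them from phosphorylating the retinoblastoma protein. Without that phosphorylation the E2F factors stay bound, and genes of DNA replication and mitosis are not transcribed. In the dentate gyrus, where new granule neurons are made from stem cells of the subgranular zone throughout life, p16Ink4a is one of the brakes on the division of precursors, and in ageing tissues it is a widely used mark of cellular senescence.

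The animals were male mice of 1 year. p16 WT CTL and p16 KO CTL stayed sedentary, and p16 WT RUN and p16 KO RUN had a running wheel for 12 days, with 4 libraries a group and the dentate gyri of 2 mice pooled in each library. The null allele is homozygous, present in every cell from conception and, per the study's methods, was made in FVB mice and crossed back to C57BL/6 for several generations, while p19Arf, the other protein of the locus, stays functional. Since tissue was sequenced in bulk, fewer cells of a type and less RNA per cell cannot be told apart.

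The libraries held between 5.42 and 16.8 Gb of aligned bases, with p16 WT CTL 2 and p16 KO CTL 7 the deepest and p16 WT RUN the shallowest group. The median correlation of a library with the others of its group, on the log2 scale across genes, was between 0.971 and 0.985. The summed level of the 13 nuclear long noncoding RNAs that were checked was between 1229 and 2793 TPM in p16 WT CTL, between 707 and 2345 TPM in p16 KO CTL, and 2095 TPM or more in every running library. p16 WT CTL 2, p16 KO CTL 6 and p16 KO CTL 7 were the 3 lowest, and the main counts over all genes and those of the lists whose count moved are given with and without them. Dentate granule neurons were represented in every library, with none of the 12 granule neuron markers at 0 and a sum of 689 to 1788 TPM.

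The targeted locus came first. Cdkn2a was at 0, 0, 0.0843 and 0.586 TPM in p16 WT CTL and at 0, 0, 0.175 and 0.344 TPM in p16 KO CTL. It was at 0, 0.147, 0.189 and 0.475 TPM in p16 WT RUN and at 0, 0, 0 and 0.413 TPM in p16 KO RUN. These levels are near the lower limit of the tables in both genotypes and overlap, and the row also takes up p19Arf transcripts, so it does not check the labels (log2 fold change -0.37 ± 0.54 (SE), exact permutation p = 0.516). Cdkn2b, which encodes the neighbouring inhibitor p15Ink4b, was at a mean of 0.936 TPM in wild-type and 0.955 TPM in knockout libraries (log2 fold change 0.08 ± 0.19 (SE), exact permutation p = 0.702).

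Across all genes, no gene differed between the genotypes at an adjusted p under 0.05 in limma, which fits a linear model to each gene and shares information on the variance between genes, and the smallest adjusted p was 0.202 over both treatments. At the unadjusted threshold of p under 0.05, which is also the threshold of the study, 1202 of 17317 genes passed (6.94%), with 658 higher in p16 KO (3.80%) and 544 lower (3.14%), and 222 genes passed at 0.01. Without the 3 libraries of low nuclear RNA 885 genes passed, 489 higher and 396 lower. A gene is called higher or lower in what follows where it passed that unadjusted threshold, with no claim that it withstands the correction. By sign alone, 8479 of the 17317 genes were positive in the 16-library fit, and 4486 were positive in both treatments. The sign counts of the lists below are to be read against these. With TPM left as deposited, in place of scaled libraries, 425 genes were higher and 772 lower, since the median log2 fold change of all genes moved to -0.04. The 16-library fit averages sedentary and running mice, so that 1191 of the 1202 genes (6.88% of those tested) had the same sign in both treatments follows in large part from how they were chosen.

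A stricter description takes the 2 treatments apart, since the 8 sedentary and the 8 running libraries share no sample. In sedentary mice 1158 genes passed (6.69%) and in running mice 671 (3.87%), and 44 genes passed in both with the same sign (0.254% of those tested), 25 of them higher in p16 KO (0.144%) and 19 lower (0.110%). Beside these, 32 genes passed in both with opposite signs (0.185%). Without the 3 libraries 1163 genes passed in sedentary and 683 in running mice, and the shared genes numbered 38 and those with opposite signs 29. With the choroid plexus score as a covariate the numbers were 14 and 24, and with array weights 163 and 79. At an adjusted p under 0.05, 0 genes passed in sedentary mice (0%) and 1 in running mice (0.00577%), Nfix, a transcription factor of neural development, named after its value was seen. Nfix was at 104 ± 3.98 TPM in p16 WT RUN and 287 ± 32.1 TPM in p16 KO RUN (SD, n = 4), a log2 fold change of 1.46 with an adjusted p of 0.000313 in limma, and at 229 ± 95.8 TPM in p16 WT CTL and 158 ± 85.2 TPM in p16 KO CTL, the opposite direction, so it is no shared difference. The sign of the log2 fold change was the same in both treatments for 9133 of the 17317 genes (52.7%), and the 2 sets of fold changes had a Pearson r of 0.05 across genes, or 0.08 where genes averaged 1 TPM or more. Without the 3 libraries of low nuclear RNA the sign was the same for 8801 of 17355 genes. Across the transcriptome, then, the genotype differences in sedentary mice said little about those in running mice, and the genes below are the ones for which both treatments gave the same direction. The interaction term, which tests whether the genotype difference changed with running, passed at the unadjusted threshold for 949 genes (5.48%) and at the adjusted one for none. Without the 3 libraries it passed at the unadjusted threshold for 1257 genes.

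**Figure D1:**
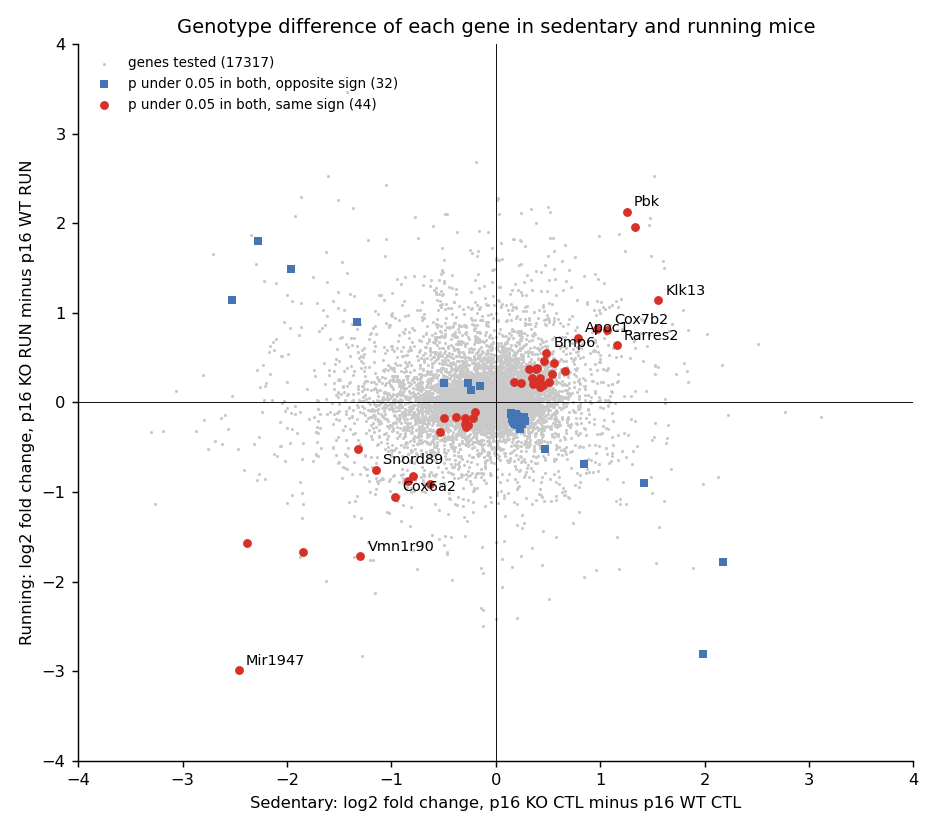
Each point is a gene, with its log2 fold change between p16 KO CTL and p16 WT CTL on the horizontal axis and the same for the running groups on the vertical axis. The grey cloud of 17317 genes is nearly round, the 44 red points passed p under 0.05 in both treatments with the same sign, the 32 blue squares with opposite signs, and 3 genes lie outside the axes.

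The number of genes shared by both treatments moved with single libraries. Without p16 WT RUN 12 it was 139, without p16 KO CTL 8 it was 56 and without p16 KO CTL 7 it was 17, against 44 with all libraries. p16 WT RUN 12 had values near those of the knockouts for Klk13, Snord89, Gabra2 and Alad, and p16 KO CTL 8 values near those of the wild types for Gabra2 and Alad. Genes called by these labels cannot check them. Per the study's methods the mice were genotyped by PCR, the level of Cdkn2a in these tables does not check the labels, and the labels were kept as given. Without p16 WT CTL 2, 1860 genes passed in the 16-library fit, and without p16 KO CTL 7, 698.

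Of the 25 genes higher in p16 KO in both treatments, Rarres2 alone was separated by genotype in each of them. It encodes chemerin, a secreted chemoattractant and adipokine. Rarres2 was at 3.41, 5.86, 7.23 and 9.99 TPM in the libraries of p16 WT CTL and at 11.3, 12.6, 13.0 and 17.0 TPM in those of p16 KO CTL. In running mice it was at 6.18, 7.15, 10.1 and 11.8 TPM in p16 WT RUN and at 12.3, 12.5, 13.7 and 14.7 TPM in p16 KO RUN. All 4 knockout libraries were above all 4 wild-type libraries in each treatment, although p16 WT RUN 10 reached above the lowest of the sedentary knockouts. The log2 fold change was 0.90 ± 0.19 (SE), 1.16 in sedentary and 0.64 in running mice, and the exact permutation p of 0.000408 is the smallest that the 4900 splits can give. Like the other genes of both treatments, Rarres2 was picked by its p in these libraries. Such a permutation p is small by choice, so it describes the separation and adds no support. The row overlaps Lrrc61, and whether reads were counted by strand is not given in the sources used here.

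Rarres2 is also a gene of ependymal and choroid cells. Of 8 ependymal markers 7 had a positive log2 fold change, with a median of 0.47. Only Rarres2 passed the threshold (12.5% called, against 3.80% of all genes on the higher side). Without 1 library 1 to 3 were higher, with 3 without p16 KO CTL 6, and the median was 0.20 to 0.72. Their summed level was 18.4 to 28.5 TPM in p16 WT CTL, 28.9 to 46.3 TPM in p16 KO CTL, 23.5 to 37.1 TPM in p16 WT RUN and 27.6 to 48.9 TPM in p16 KO RUN, with up to 2 of the 8 at 0 in a library. Of 12 choroid plexus markers 11 had a positive log2 fold change. Of these 1, Folr1, passed (8.33% called, against 3.80% of all genes on the higher side), or 2 without p16 KO CTL 6. The choroid plexus markers summed to 69.6 to 114 TPM in p16 WT CTL and 87.1 to 292 TPM in p16 KO CTL. In the running groups they summed to 61.9 to 102 TPM in p16 WT RUN and 78.3 to 124 TPM in p16 KO RUN. Up to 4 of the 12 were at 0. The part of these cells in the difference of Rarres2 was not tested. With the choroid plexus score as a covariate, its log2 fold change was 0.87 ± 0.21 (SE).

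Tmsb10, which encodes an actin-sequestering thymosin abundant in growing neurites, was the most abundant of the genes higher in both treatments. Tmsb10 was at 188, 199.7, 202 and 239 TPM in the libraries of p16 WT CTL and at 219, 229, 259 and 286 TPM in those of p16 KO CTL. In runners it was at 180.3, 188, 221 and 249.7 TPM in p16 WT RUN and at 249.8, 252, 276 and 299.8 TPM in p16 KO RUN. The groups overlapped in sedentary mice and not in running mice (log2 fold change 0.35 ± 0.09 (SE), exact permutation p = 0.0049). Sox4, a transcription factor of committed neuronal precursors, was at 8.87, 9.94, 10.6 and 11.5 TPM in p16 WT CTL and at 11.1, 12.5, 13.2 and 13.2 TPM in p16 KO CTL. After running it was at 9.61, 10.6, 11.4 and 11.9 TPM in wild-type and at 10.9, 13.0, 13.4 and 15.2 TPM in knockout libraries, with overlap in both treatments (log2 fold change 0.31 ± 0.08 (SE), exact permutation p = 0.00286).

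Bmp6, a bone morphogenetic protein whose family holds neural stem cells in quiescence, was higher in p16 KO by 0.48 in sedentary and 0.55 in running mice on the log2 scale. Bmp6 was at 4.83, 5.45, 7.56 and 7.63 TPM in the libraries of p16 WT CTL and at 7.36, 8.29, 8.97 and 9.12 TPM in those of p16 KO CTL. In the running groups it was at 5.34, 5.44, 8.04 and 8.07 TPM in p16 WT RUN and at 7.88, 8.87, 10.9 and 11.4 TPM in p16 KO RUN. The lowest knockout library of each treatment lay among the wild types (log2 fold change 0.52 ± 0.13 (SE), exact permutation p = 0.00367).

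Apoc1, a small apolipoprotein of lipoprotein particles, was at 2.18, 3.30, 3.73 and 4.73 TPM in p16 WT CTL and at 3.91, 4.98, 6.44 and 8.00 TPM in p16 KO CTL. In running mice it was at 1.76, 2.18, 3.38 and 4.20 TPM in p16 WT RUN and at 3.69, 4.34, 4.46 and 5.88 TPM in p16 KO RUN (log2 fold change 0.75 ± 0.21 (SE), exact permutation p = 0.00531). p16 KO CTL 7 had the highest value of Apoc1, and the ranges of the genotypes overlapped in both treatments. Other genes higher in both treatments were Vamp5 (log2 fold change 0.46), a vesicle membrane protein, Hrsp12 (0.51), an enamine deaminase, Zcchc24 (0.32), Cox7b2 (0.94), a cytochrome c oxidase subunit, the noncoding BC064078 (0.38) and H2-K1 (0.23), which is taken up with the interferon genes.

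**Figure D2:**
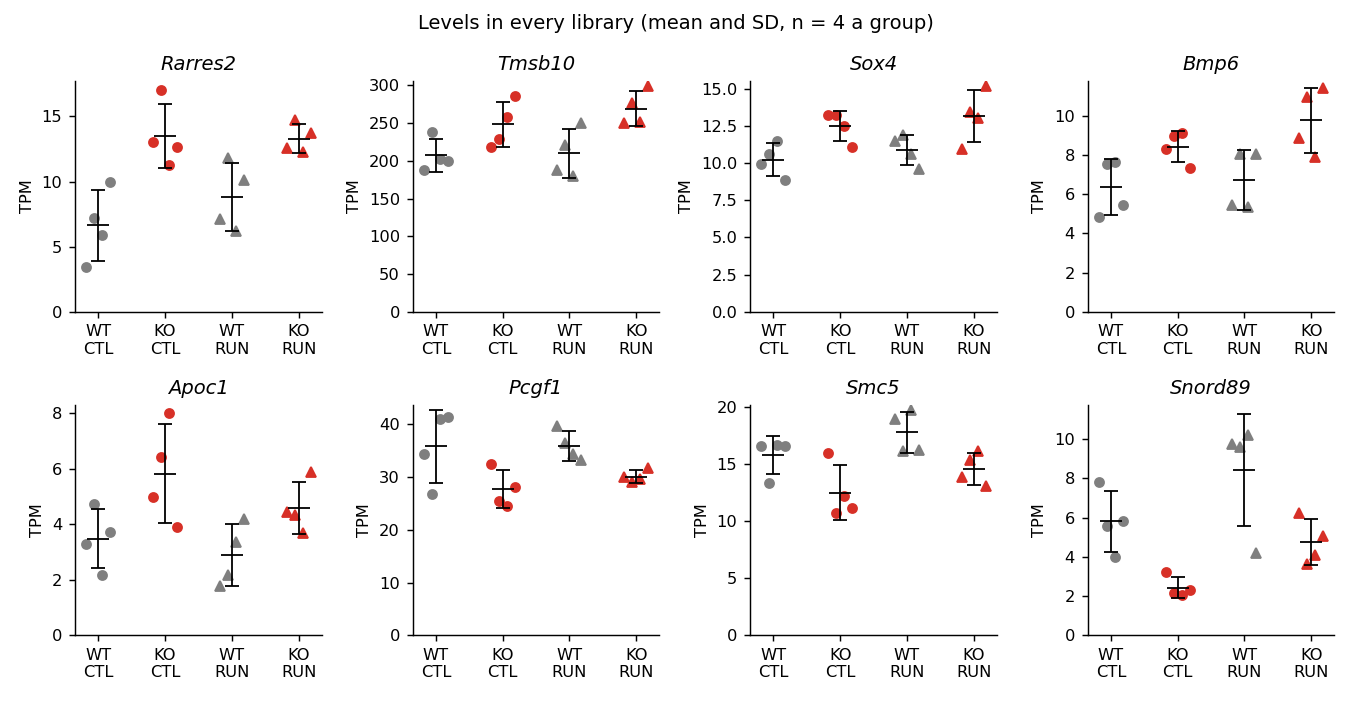
TPM in every library for 8 genes that passed p under 0.05 in both treatments with the same sign, with grey for p16 WT, red for p16 KO, circles for sedentary and triangles for running mice, and the mean ± SD of 4 libraries in black. Rarres2 is separated by genotype in each treatment, whereas the genotypes touch or overlap in at least 1 treatment for the other 7.

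Some genes stood out by size, but at levels near the lower limit. Pbk, a kinase of dividing cells, was at 0, 0.0929, 0.0945 and 0.166 TPM in p16 WT CTL and at 0.131, 0.244, 0.368 and 0.679 TPM in p16 KO CTL, and at 0, 0.113, 0.165 and 0.199 TPM in p16 WT RUN and 0.646, 0.679, 0.835 and 1.05 TPM in p16 KO RUN. Its log2 fold change was 1.69 ± 0.32 (SE), with an exact permutation p of 0.000816, and the running groups did not overlap. Klk13, a kallikrein protease, was listed at 0 in 6 of 8 wild-type libraries and at 0.133 to 0.315 TPM in the 8 knockouts, and p16 WT RUN 12 was at 0.209 TPM. C920025E04Rik, a gene of chromosome 17 with no settled name, was listed at 0 in 5 of 8 wild-type libraries, at up to 0.385 TPM in the others, and at 0.179 to 0.586 TPM in knockouts.

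Among the genes lower in p16 KO in both treatments, the microRNA gene Mir1947 had the smallest p of all genes in the 16-library fit (adjusted p = 0.202 in limma). It lies at chr16:33105361-33105445 inside Lmln. It was listed at 0 in all 8 knockout libraries, and at 0, 0.676, 0.883 and 1.18 TPM in p16 WT CTL and 0.256, 0.671, 0.909 and 1.38 TPM in p16 WT RUN, so the only overlap is the 0 of p16 WT CTL 2 (exact permutation p = 0.00204). Mir7010, inside Gucy1a3 at chr3:82106247-82106309, was at 0.00758, 0.441, 0.547 and 1.51 TPM in p16 WT CTL and 0.00546, 0.015, 0.0203 and 0.131 TPM in p16 KO CTL. In running mice Mir7010 was at 0.0256, 0.274, 0.635 and 0.662 TPM in wild-type and 0.00562, 0.0183, 0.0292 and 0.0544 TPM in knockout libraries, with overlap in both treatments. These values come from reads of an mRNA library over the hairpin, and the mature microRNAs themselves were not measured. The mature sequences in RefSeq (GRCm38.p6), shown because they would carry any effect of these genes on targets, are given 5′ to 3′ with the seed, bases 2 to 8, in capitals, and the 3 seeds differ.
mmu-miR-1947-5p: aGGACGAGcuagcugagugcug
mmu-miR-1947-3p: gCACUGAGcuagcucucccucc
mmu-miR-7010-5p: cGGAAAGGauugggaaacuuga

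The row of Snord89, a small nucleolar RNA of the C/D box class, was separated by genotype in sedentary mice. Reads of an mRNA library over this row, and over that of Snord2 below, cannot tell the mature small RNA from longer transcripts. Snord89 was at 4.01, 5.58, 5.84 and 7.81 TPM in the libraries of p16 WT CTL and at 2.04, 2.16, 2.31 and 3.21 TPM in those of p16 KO CTL. In runners it was at 4.19, 9.59, 9.75 and 10.2 TPM in p16 WT RUN and at 3.63, 4.07, 5.07 and 6.24 TPM in p16 KO RUN. In running mice p16 WT RUN 12 lay among the knockouts and the other wild types above them (log2 fold change -0.95 ± 0.19 (SE), exact permutation p = 0.00163). The noncoding 2310075C17Rik was listed at 0 in 7 of 8 knockout libraries and in p16 WT RUN 12, and reached 1.13 TPM in wild-type libraries. G530011O06Rik, a noncoding gene that overlaps Mid1 on chromosome X, had a log2 fold change of -0.80 ± 0.18 (SE), -0.79 in sedentary and -0.82 in running mice. Vmn1r90, a vomeronasal receptor gene, was under 1 TPM in every library.

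Pcgf1 and Smc5 were lower in both treatments. Pcgf1, a subunit of a Polycomb repressive complex 1 variant, was at 26.7, 34.4, 41.0 and 41.4 TPM in p16 WT CTL and at 24.6, 25.4, 28.2 and 32.6 TPM in p16 KO CTL. After running it was at 33.3, 34.3, 36.5 and 39.6 TPM in wild-type and 29.1, 29.6, 29.9 and 31.8 TPM in knockout libraries, without overlap (log2 fold change -0.27 ± 0.07 (SE), exact permutation p = 0.00449). Smc5, of the SMC5/6 complex of DNA repair, was at 13.3, 16.6, 16.6 and 16.7 TPM in p16 WT CTL and 10.7, 11.2, 12.2 and 15.9 TPM in p16 KO CTL, and at 16.2, 16.2, 18.9 and 19.7 TPM and 13.0, 13.9, 15.3 and 16.1 TPM in the running groups (log2 fold change -0.28 ± 0.08 (SE), exact permutation p = 0.00286). For both genes the lowest sedentary wild-type library, p16 WT CTL 2, lay among the knockouts, and it is one of the 3 libraries of low nuclear RNA. Ints1, a subunit of the Integrator complex (-0.23), Utp14a, a factor of ribosome assembly (-0.20), Trmt61b, a tRNA methyltransferase whose row is annotated as a long noncoding RNA and overlaps Spdya (-0.43), and Mars, methionyl-tRNA synthetase (-0.16), had log2 fold changes of the same sign in both treatments.

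Cox6a2, the muscle form of a cytochrome c oxidase subunit, was lower in p16 KO by 1.01 on the log2 scale. Cox6a2 was at 4.22, 6.29, 7.07 and 9.47 TPM in the libraries of p16 WT CTL and at 1.43, 2.55, 4.87 and 5.43 TPM in those of p16 KO CTL. In the running groups it was at 2.96, 5.78, 9.95 and 10.1 TPM in p16 WT RUN and at 1.94, 3.44, 3.51 and 3.65 TPM in p16 KO RUN. p16 WT RUN 12 was again among the knockouts, and p16 KO RUN 16 was the lowest running library (log2 fold change -1.01 ± 0.29 (SE), exact permutation p = 0.00939). Nrp, a row on chromosome 12 that overlaps Alkbh1 and Slirp, had a log2 fold change of -0.86 ± 0.22 (SE), and Pcdhb20, a clustered protocadherin whose exons lie among those of near-identical relatives, -0.26 ± 0.06 (SE). Both are uncertain where reads could be split between neighbouring genes.

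The remaining 14 genes of both treatments, 10 higher and 4 lower, were not among those that the naming rule picked first and are given by their means of 4 libraries. A2m, the protease inhibitor alpha-2-macroglobulin, had means of 2.10 and 3.66 TPM in p16 WT CTL and p16 KO CTL and of 2.78 and 4.56 TPM in p16 WT RUN and p16 KO RUN (log2 fold change 0.89 ± 0.27, SE). Mdk, midkine, a heparin-binding growth factor of developing neurons, had means of 23.2 and 29.2 TPM in p16 WT CTL and p16 KO CTL and of 22.8 and 26.4 TPM in p16 WT RUN and p16 KO RUN (0.31 ± 0.10, SE). The others that were higher were Gpr17 and P2ry12, described with the glial markers, Cdk5rap2 (0.32), a centrosome protein of dividing progenitors whose gene lies 19.0 Mb from Cdkn2a, Rab32 (0.39), a GTPase of vesicle traffic, Slc39a12 (0.29), a zinc transporter, C1qtnf5 (0.28), Fam114a1 (0.43) and Vstm2l (0.20). The lower ones were Pfas (-0.27), an enzyme of purine synthesis, the small nucleolar RNA Snord2 (-0.92), the pseudogene 6820431F20Rik (-0.34) and Gm2506 (-0.77), which lies on chromosome 4 among near copies. In all, 7 of the 44 genes had a mean under 1 TPM and 35 were protein-coding. Each of the 30 genes that the rule named first kept its call in the 16-library fit under every alternative that gave a value.

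Read by overlap, the genotypes were apart in sedentary mice for 2.81% and in running mice for 2.49% of the genes tested. In all, 4 genes did not overlap between the genotypes within either treatment and had the same direction in both (0.0231% of those tested), beside 6 with opposite directions (0.0346%). They were Rarres2, Clec7a, Lrpprc and Cdkal1, the last 3 named after their values were seen for this separation, so no permutation p is given for them. Cdkal1, a tRNA-modifying enzyme, was the only gene without overlap between all 8 knockout and all 8 wild-type libraries (0.00577%), at 14.0, 15.2, 15.4 and 15.4 TPM in p16 WT CTL, 14.0, 14.0, 14.0 and 14.8 TPM in p16 WT RUN, 13.2, 13.5, 13.8 and 13.9 TPM in p16 KO CTL and 12.7, 12.8, 13.6 and 13.9 TPM in p16 KO RUN. Its log2 fold change was small, -0.08 ± 0.04 (SE), and limma's p of 0.0661 did not pass. The genotypes nearly touched, at 13.957 TPM in p16 WT CTL 2 and 13.947 TPM in p16 KO RUN 16, before libraries were scaled. Lrpprc, a mitochondrial RNA-binding protein, was lower (log2 fold change -0.13 ± 0.04, SE). Clec7a, the beta-glucan receptor dectin-1 of activated microglia, was higher (log2 fold change 0.55 ± 0.23, SE), at no more than 0.354 TPM in any library. Its limma call was lost without p16 WT CTL 4, p16 KO CTL 7 or p16 WT RUN 11, with the nuclear RNA or choroid plexus score as a covariate, and without the 3 libraries of low nuclear RNA.

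Genes of the interferon response and of antigen presentation by MHC class I were higher in p16 KO in 7 cases and lower in none. Interferons are cytokines of antiviral defence that induce sensors and effectors of viral RNA as well as the class I molecules that present peptides at the cell surface. Of 33 members tested, 7 were higher and 0 lower (21.2% called, against 6.94% of all genes and 3.80% of all genes on the higher side), and the median log2 fold change was 0.08 against a median near 0 over all genes. By sign 23 of 33 were positive, and 14 were positive in both treatments, against 8479 and 4486 of all 17317 genes. When the 3 libraries of low nuclear RNA were left out, 10 of 33 were higher and 0 lower, against 5.10% of all genes called, and without any 1 library between 6 and 9 were higher. With the nuclear RNA score as a covariate 5 were higher and 0 lower, against 4.02% of all genes, as B2m and Psmb8 lost their calls. The choroid plexus score gave 6 higher and 1 lower, against 3.86%, with B2m lost.

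H2-K1 and H2-D1 encode the classical class I heavy chains and B2m the light chain they share. H2-K1 was at 25.8, 28.8, 30.5 and 31.9 TPM in p16 WT CTL and 31.9, 32.0, 34.4 and 34.5 TPM in p16 KO CTL, and at 27.4, 28.9, 31.8 and 31.9 TPM in p16 WT RUN and 32.6, 33.7, 35 and 36.9 TPM in p16 KO RUN. The sedentary ranges overlapped and the running ranges did not (log2 fold change 0.23 ± 0.06 (SE), exact permutation p = 0.00122, limma's p 0.0269 in sedentary and 0.0135 in running mice). H2-D1 was at 39.0, 40.7, 42.7 and 45.0 TPM and 41.9, 44.7, 47.5 and 53.6 TPM in sedentary wild-type and knockout libraries, and at 42.4, 45.8, 46.1 and 46.2 TPM and 48.3, 49.5, 54.9 and 56.3 TPM in running ones (log2 fold change 0.22 ± 0.06 (SE), exact permutation p = 0.000816). Of the other members of this branch, B2m, abundant at a mean of 207 TPM, had a log2 fold change of 0.16 ± 0.06 (SE), and Psmb8, an immunoproteasome subunit that cuts peptides for class I, 0.34 ± 0.12 (SE). The call of B2m was lost in 5 of the 16 fits that left out a library. The class I genes are near copies of one another and H2-D1 overlaps H2-L, so reads may be split between them.

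The other 3 higher members act on viral RNA. Eif2ak2, the kinase PKR that senses double-stranded RNA and halts translation, was at 4.30, 4.55, 4.58 and 5.20 TPM in p16 WT CTL and 5.72, 6.86, 7.83 and 9.11 TPM in p16 KO CTL, which do not overlap. In running mice it was at 3.76, 4.05, 5.89 and 7.75 TPM in wild-type and 5.51, 6.28, 6.69 and 6.95 TPM in knockout libraries, with p16 WT RUN 12 the highest of all 8 (log2 fold change 0.50 ± 0.15 (SE), exact permutation p = 0.011). Rsad2, the antiviral enzyme viperin, was at 0.626, 0.633, 0.656 and 1.04 TPM and 1.11, 1.19, 1.30 and 1.35 TPM in sedentary mice, and at 0.607, 0.745, 1.10 and 1.72 TPM and 1.08, 1.48, 1.49 and 1.58 TPM in running mice, again with p16 WT RUN 12 highest (log2 fold change 0.62 ± 0.19 (SE), exact permutation p = 0.00694). Oas1a, an oligoadenylate synthetase, was at 0.215, 0.236, 0.267 and 0.333 TPM in p16 WT CTL. It was at 0.178, 0.406, 0.448 and 0.604 TPM in p16 KO CTL. After running it was at 0, 0.0972, 0.289 and 0.36 TPM in wild-type and 0.579, 0.581, 0.622 and 0.622 TPM in knockout libraries. Oas1a had a log2 fold change of 1.00 ± 0.31 (SE), and was named after its values were seen, so no permutation p is given. The interferon factors Irf7 (-0.05) and Irf9 (-0.27) and the widely used marker Isg15 (0.05) did not pass.

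The bases before the starts of these genes are shown because interferon acts through short motifs there. Matches were looked for on both strands of the 250 bases before each RefSeq start (GRCm38.p6), with GAAA, any 2 bases and GAAA for the interferon-stimulated response element, and with AGTTTC, any 2 bases and TTCT for its form at class I genes, the latter chosen after the sequences were seen. The first occurs in 2.98% of the 32851 windows of all genes and in 10 of the 27 list members with a window, 3 of them (B2m, Rsad2 and Oas1a) among the 7 higher genes. The second occurs in 0.189% of all windows and in 3 of the 27 members. The share over all genes is per window, of which a gene can have several. A member was counted once if any of its windows held a match, so the shares differ in unit. The windows of H2-K1 and H2-D1 both hold AGTTTCACTTCT and share a longest identical run of 47 bases. A match is a description of the letters and not a site shown to be bound. The windows are chr17:34000348-34000597 on the minus strand for H2-K1, the first of its 2 starts, chr17:35262844-35263093 on the plus strand for H2-D1, chr2:122147437-122147686 on the plus strand for B2m and chr12:26456453-26456702 on the minus strand for Rsad2, printed 5′ to 3′ along the gene with the match in capitals.
H2-K1: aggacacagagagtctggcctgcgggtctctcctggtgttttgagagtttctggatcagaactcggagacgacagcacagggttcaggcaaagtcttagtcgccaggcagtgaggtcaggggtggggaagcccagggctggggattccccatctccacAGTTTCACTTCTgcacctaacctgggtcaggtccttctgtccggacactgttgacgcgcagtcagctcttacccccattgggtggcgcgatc
H2-D1: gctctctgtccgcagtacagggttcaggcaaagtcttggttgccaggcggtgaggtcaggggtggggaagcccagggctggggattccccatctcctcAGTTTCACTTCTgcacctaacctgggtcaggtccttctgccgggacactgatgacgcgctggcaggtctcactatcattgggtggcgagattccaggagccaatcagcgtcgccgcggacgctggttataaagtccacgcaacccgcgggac
B2m: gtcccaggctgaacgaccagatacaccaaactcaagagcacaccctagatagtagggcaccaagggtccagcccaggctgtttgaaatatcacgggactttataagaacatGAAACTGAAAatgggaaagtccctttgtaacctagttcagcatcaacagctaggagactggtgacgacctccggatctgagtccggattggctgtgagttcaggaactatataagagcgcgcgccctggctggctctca
Rsad2: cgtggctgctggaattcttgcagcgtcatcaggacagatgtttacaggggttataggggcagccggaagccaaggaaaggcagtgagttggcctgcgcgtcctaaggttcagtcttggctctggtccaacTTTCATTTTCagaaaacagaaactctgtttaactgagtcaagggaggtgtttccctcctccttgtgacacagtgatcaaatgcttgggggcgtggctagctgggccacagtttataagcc

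Genes of heat shock and the unfolded protein response were the other list of over 20 genes with a share above 20%, and its count rested on a few libraries. The unfolded protein response raises chaperones and folding enzymes of this compartment when proteins misfold there. Of 24 members 5 were higher and 0 lower (20.8% called, against 6.94% of all genes and 3.80% of all genes on the higher side). By sign 23 were positive in the 16-library fit and 16 in both treatments, against 8479 and 4486 of all 17317 genes. The higher members were Canx, Manf, Calr, Pdia3 and Sdf2l1. Without the 3 libraries of low nuclear RNA 1 of 24, Calr, passed, against 5.10% of all genes, and with the nuclear RNA score as a covariate 1, Canx, so no member passed under both settings. Single libraries moved the count too, to 1 without p16 KO RUN 15 and to 7 without p16 KO RUN 14 or p16 KO RUN 16.

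Calnexin and calreticulin (Canx and Calr) hold newly made glycoproteins until they fold, and Pdia3 forms their disulphide bonds. Calr was at 552, 589, 644 and 644 TPM in p16 WT CTL and 582, 615, 627 and 648 TPM in p16 KO CTL, and at 524, 562, 577 and 596 TPM in p16 WT RUN and 585, 588, 659 and 732 TPM in p16 KO RUN, with overlap in both treatments (log2 fold change 0.14 ± 0.06 (SE), exact permutation p = 0.0371). Canx was at 177, 208, 264 and 264 TPM in p16 WT CTL and 189, 282, 284 and 291 TPM in p16 KO CTL. In runners it was at 178, 178, 183 and 284 TPM in p16 WT RUN and 265, 275, 285 and 301 TPM in p16 KO RUN (log2 fold change 0.37 ± 0.13 (SE), exact permutation p = 0.0224). The values of Canx lay in a low and a high cluster, and in running mice p16 WT RUN 10 alone among wild types was in the high one, and in sedentary mice p16 KO CTL 5 alone among knockouts in the low one, while p16 WT CTL was split evenly. Manf, a secreted factor of the same response, had a log2 fold change of 0.19 ± 0.08 (SE), Pdia3 of 0.14 ± 0.06 (SE) and Sdf2l1 of 0.27 ± 0.12 (SE). The call was lost in 10 of the 16 fits without 1 library for Calr, in 8 for Pdia3 and in 12 for Sdf2l1, and without p16 KO RUN 15 for Manf.

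The endoplasmic reticulum stress response element, CCAAT, any 9 bases and CCACG, was looked for in the same way. It occurs in 0.113% of the 32851 windows and in 6 of the 20 list members with a window, Calr and Canx among them, of the 4 higher members that have one. Members were again counted by gene and not by window. Their windows, chr8:84846932-84847181 on the minus strand for Calr and chr11:50325674-50325923 on the minus strand for Canx, are shown with the match in capitals, on the opposite strand for Calr.
Calr: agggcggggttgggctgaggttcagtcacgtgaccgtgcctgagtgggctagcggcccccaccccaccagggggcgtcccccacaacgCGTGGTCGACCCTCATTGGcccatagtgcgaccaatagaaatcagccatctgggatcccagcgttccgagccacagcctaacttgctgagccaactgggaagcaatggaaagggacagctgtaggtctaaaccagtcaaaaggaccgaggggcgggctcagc
Canx: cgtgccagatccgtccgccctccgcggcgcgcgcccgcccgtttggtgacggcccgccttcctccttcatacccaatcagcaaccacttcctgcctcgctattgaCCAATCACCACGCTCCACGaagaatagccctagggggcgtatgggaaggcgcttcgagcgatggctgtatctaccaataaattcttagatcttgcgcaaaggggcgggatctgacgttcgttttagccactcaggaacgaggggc

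**Figure D3:**
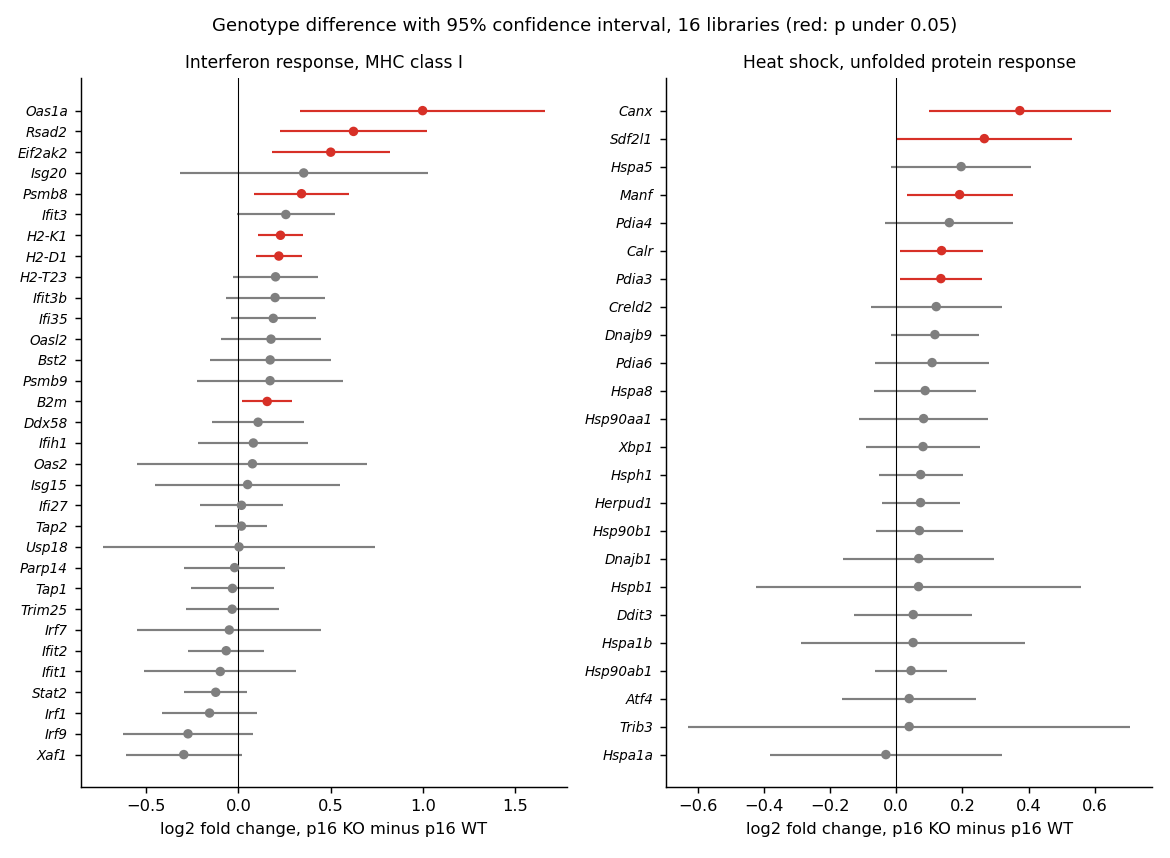
Log2 fold change of tested members of 2 gene lists between 8 p16 KO and 8 p16 WT libraries, with its 95% confidence interval on the horizontal axis and genes past p under 0.05 in red. Of 33 interferon and class I genes, 32 of which are drawn, 7 are red, all on the positive side, and of 24 heat shock and unfolded protein genes 5 are red and 23 positive.

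In the pathway of p16Ink4a itself, of 27 inhibitors, cyclins, kinases, retinoblastoma proteins and E2F factors, 0 were higher and 1 lower (3.70% called, against 6.94% of all genes), with a median log2 fold change near 0. Without 1 library 0 to 2 were higher and 0 to 3 lower. The lower one was Cdk6, the kinase that p16Ink4a inhibits, at 1.06, 1.82, 2.41 and 2.92 TPM in p16 WT CTL, 0.669, 0.916, 1.27 and 2.17 TPM in p16 KO CTL, 1.16, 1.57, 2.26 and 2.72 TPM in p16 WT RUN and 0.826, 1.43, 1.44 and 1.61 TPM in p16 KO RUN. The genotypes overlapped in both treatments, and the call was lost in 7 of the 16 fits that left out a library (log2 fold change -0.56 ± 0.24 (SE), exact permutation p = 0.0498). Of 29 E2F targets and proliferation genes, 3 were higher and 1 lower (13.8%, against 6.94% of all genes), and 2 higher and 1 lower without the 3 libraries of low nuclear RNA. The median log2 fold change was -0.19 in sedentary and 0.14 in running mice.

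The higher E2F targets were not alike in the 2 treatments. Top2a, the topoisomerase of dividing cells, was at 0.155, 0.375, 0.451 and 0.546 TPM in p16 WT CTL and 0.276, 0.293, 0.367 and 0.492 TPM in p16 KO CTL, which overlap. After running it was at 0.125, 0.221, 0.242 and 0.523 TPM in p16 WT RUN and 0.763, 0.844, 0.958 and 1.36 TPM in p16 KO RUN, which do not, and the interaction, of 1.56 ± 0.50 (SE) on the log2 scale, passed the unadjusted threshold (adjusted p = 0.797 in limma). Cdk1, the mitotic kinase, was listed at 0 to 0.372 TPM, with a log2 fold change of 0.06 in sedentary and 1.60 in running mice (interaction 1.54 ± 0.56, SE, with the same adjusted p of 0.797 in limma). For both the genotypes were apart in running and not in sedentary mice, and neither is a difference shared by the treatments. Aurka, another mitotic kinase, was 0.39 in sedentary and 0.27 in running mice on the log2 scale (log2 fold change 0.33 ± 0.13 (SE), exact permutation p = 0.0176). Mcm5, of the replicative helicase, was lower, at 4.72, 4.74, 5.24 and 6.54 TPM in p16 WT CTL and 3.17, 3.43, 3.61 and 4.07 TPM in p16 KO CTL without overlap, and at 5.37, 5.40, 5.62 and 6.27 TPM and 4.29, 4.67, 4.73 and 6.13 TPM in running mice with overlap (log2 fold change -0.34 ± 0.10 (SE), exact permutation p = 0.00449).

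Lists of senescence gave counts in both directions, and the shares are to be read against 3.80% of all genes higher and 3.14% lower. Of 34 genes of the senescence-associated secretion 2 were higher, the chemokine Cxcl16 (0.49) and the growth factor binding protein Igfbp2 (0.34), and 2 lower, the alarmin Hmgb1 (-0.17) and Gpnmb (-0.40), a glycoprotein of phagocytes, all on the log2 scale. These calls were lost in 6 of the 16 fits without 1 library for Cxcl16, in 9 for Igfbp2 and in 11 for Gpnmb, and in none for Hmgb1. In the fits without 1 library 0 were higher without p16 WT CTL 4 and 4 without p16 WT RUN 10, and 1 to 3 were lower. Over the 13 libraries other than those of low nuclear RNA, 0 of the 34 were higher and 1 lower. Hmgb1 was at 259.9, 261, 284 and 289 TPM in p16 WT CTL and 213, 216, 220.2 and 237 TPM in p16 KO CTL without overlap, and at 217, 221, 279 and 285 TPM and 213, 227, 233 and 252 TPM in running mice with overlap. Of 25 genes of p53 and its targets 1 was lower, the death receptor Fas (-0.47 ± 0.20, SE), and 0 higher, a share of 4% against 6.94% of all genes. The call of Fas was lost in 4 of the 16 fits without 1 library, with array weights, with either score as a covariate and without the 3 libraries. Gpnmb and Fas were named by the study from the sedentary libraries and are not independent of them. Of 30 genes of DNA repair and chromatin 0 were called, while 22 had a negative log2 fold change, with a median of -0.06. Leaving out 1 library gave 0 to 4 lower, the most without p16 KO CTL 5.

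Of 10 markers of oligodendrocyte precursors all 10 had a positive log2 fold change (median 0.22), 8 of them in both treatments, and 3 passed, Gpr17, Olig2 and C1ql1 (30% called, against 3.80% of all genes on the higher side). Their number was 2 without the 3 libraries of low nuclear RNA, 1 without p16 WT CTL 3 and 5 without p16 WT RUN 10. Gpr17, a receptor of precursors on the way to oligodendrocytes, was at 13.8, 14.7, 22.0 and 24.3 TPM in p16 WT CTL and 22.3, 25.3, 25.4 and 30.4 TPM in p16 KO CTL, and at 16.0, 17.2, 22.4 and 23.6 TPM in p16 WT RUN and 20.5, 24.1, 31.0 and 31.1 TPM in p16 KO RUN (log2 fold change 0.50 ± 0.14 (SE), exact permutation p = 0.00898). It passed in each treatment alone, with overlapping ranges in both. Olig2, the lineage transcription factor, had a log2 fold change of 0.24 ± 0.11 (SE) and C1ql1, a secreted C1q-like protein, of 0.23 ± 0.09 (SE), and their calls were lost in 10 and 4 of the 16 fits without 1 library. The summed level of the 10 markers was 195 to 231 TPM in p16 WT CTL, 221 to 261 TPM in p16 KO CTL, 185 to 264 TPM in p16 WT RUN and 216 to 275 TPM in p16 KO RUN, with none at 0. Of 12 markers of mature oligodendrocytes 0 passed, and their median log2 fold change was 0.33 in sedentary and -0.19 in running mice.

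Of 14 microglial markers 13 were positive and 2 passed (14.3%, against 3.80% of all genes on the higher side). P2ry12, the purinergic receptor of resting microglia, was at 35.6, 43.1, 48.2 and 49.7 TPM in p16 WT CTL and 45.0, 51.9, 72.2 and 75.0 TPM in p16 KO CTL, and at 36.7, 39.7, 40.4 and 44.7 TPM in p16 WT RUN and 43.6, 44.5, 45.8 and 53.9 TPM in p16 KO RUN (log2 fold change 0.36 ± 0.12 (SE), exact permutation p = 0.00857). Its 2 highest values were those of p16 KO CTL 6 and 7, of low nuclear RNA. Tmem119, a membrane protein of microglia, was 0.42 in sedentary and 0.04 in running mice on the log2 scale, and its call was lost in 9 of the 16 fits without 1 library. The summed level of the markers was 744 to 894 TPM in p16 WT CTL, 735 to 1089 TPM in p16 KO CTL, 705 to 851 TPM in p16 WT RUN and 687 to 838 TPM in p16 KO RUN, with none at 0. Without the 3 libraries of low nuclear RNA 10 of 14 were positive and 1, P2ry12, passed. Of 18 chemokine and cytokine receptors 2 were higher and 0 lower (11.1% called, against 6.94% of all genes), with 0 higher without p16 WT RUN 11 and 3 without p16 WT CTL 2. Of 17 complement genes 1 was higher, Cd59a (5.88% called, below the 6.94% of all genes).

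Of 10 markers of newborn neurons 3 were higher, Sox4, Calb2 and Eomes (30%, against 3.80% of all genes on the higher side). Their number was 2 without the 3 libraries of low nuclear RNA, where Calb2 did not pass, 1 without p16 WT RUN 10 and 4 without p16 WT CTL 3. Calb2, calretinin, which mossy cells and immature granule neurons share, was at 154, 172, 193 and 218 TPM in p16 WT CTL and 152, 204, 205 and 233 TPM in p16 KO CTL, and at 124, 149, 150.1 and 190.2 TPM in p16 WT RUN and 159.5, 203, 204 and 279 TPM in p16 KO RUN (log2 fold change 0.31 ± 0.12 (SE), exact permutation p = 0.0351). Eomes, the transcription factor Tbr2 of intermediate progenitors, had the opposite sign in the 2 treatments, -0.16 in sedentary and 1.92 in running mice (interaction 2.07 ± 0.59, SE, adjusted p = 0.797 in limma), so it is no shared difference. Dcx, doublecortin, was -0.25 in sedentary and -0.11 in running mice on the log2 scale and did not pass in the 16-library fit. Of 12 granule neuron markers 1 was lower, Rfx3 (8.33% called, against 3.14% of all genes on the lower side). Its values, from 20.0 to 95.6 TPM, overlapped in both treatments (log2 fold change -0.78 ± 0.31 (SE), exact permutation p = 0.0445). The call of Rfx3 was lost in 3 of the 16 fits without 1 library and with the nuclear RNA score as a covariate. Of 10 stem cell and radial glia markers 1 was higher (10% called), Lpar1 (0.33 on the log2 scale, lost in 10 of the 16 fits without 1 library). Of 12 astrocyte markers, 11 of which were positive, 1 was higher (8.33% called), Ntsr2, or 4 without p16 WT CTL 2. Both shares rest on 1 gene and are to be read against 3.80% of all genes on the higher side.

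Tissue next to the dentate gyrus was checked in the same way. Of 11 markers of thalamus and habenula 10 were positive and 2 were higher (18.2%, against 3.80% of all genes), Tcf7l2, a Wnt effector, and Calb2, whose call was lost without p16 WT RUN 10 or p16 KO RUN 16, with summed levels of 251 to 290 TPM in p16 WT CTL, 253 to 335 TPM in p16 KO CTL, 199 to 267 TPM in p16 WT RUN and 272 to 340 TPM in p16 KO RUN and up to 2 of 11 at 0. Tcf7l2 was at 3.09, 3.24, 3.53 and 3.97 TPM in p16 WT RUN and 4.35, 4.45, 4.73 and 5.59 TPM in p16 KO RUN without overlap, and at 3.65, 3.93, 4.05 and 4.77 TPM and 3.98, 4.60, 4.63 and 5.02 TPM in sedentary mice with overlap (log2 fold change 0.34 ± 0.09 (SE), exact permutation p = 0.00122). The part of dissection in these differences was not tested. Folr1, the folate receptor of the choroid plexus, was at no more than 1.16 TPM.

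Of 33 genes of lipid and cholesterol metabolism 4 were higher, Plin3 (0.37), a lipid droplet coat, Lpl (0.57), lipoprotein lipase, Apoe (0.26) and Apod (0.43), carriers of lipid made by glia, and 1 lower, Lpin3 (15.2% called, against 6.94% of all genes). The number higher was 3 without the 3 libraries of low nuclear RNA, namely Apoe, Plin3 and Fads2, where 0 were lower, 2 without p16 KO CTL 7 and 6 without p16 WT CTL 2. The call of Lpl was lost without the 3 libraries and with the choroid plexus score as a covariate. Of 12 astrocyte markers 11 were positive, with a median log2 fold change of 0.26 in sedentary and 0.04 in running mice, summed levels of 3445 to 4313 TPM in p16 WT CTL, 3470 to 5024 TPM in p16 KO CTL, 3524 to 4185 TPM in p16 WT RUN and 3559 to 4063 TPM in p16 KO RUN, and none at 0. Their part in the lipid genes was not tested. The interaction passed the unadjusted threshold for Plin3 (-0.48 ± 0.19, SE) and Apod (-0.74 ± 0.32, SE), whose log2 fold changes in running mice were 0.13 and 0.07. Apoe, at a mean of 4349.6 TPM, was 0.35 in sedentary and 0.16 in running mice, and p16 KO CTL 6 and 7, without either of which its call was lost, were highest. Of 25 genes of lactate and glucose transport and glycolysis 2 were higher, the monocarboxylate transporter Slc16a1 and Pdk2, a kinase of pyruvate dehydrogenase (0.11 ± 0.04, SE), a share of 8% against 6.94% of all genes. The number was 1 without p16 KO CTL 7 and 4 without p16 WT CTL 2, and the call of Pdk2 was lost without p16 KO CTL 7 or p16 WT RUN 11 and with the nuclear RNA or choroid plexus score as a covariate. Of 41 Wnt genes 2 were higher and 2 lower (9.76% called, against 6.94% of all genes). The higher were Tcf7l2 and the receptor Fzd7 (0.23 ± 0.08, SE). The lower were the receptor Ror1 (-0.51 ± 0.23, SE) and Trabd2b, which cleaves Wnt proteins. Without 1 library 2 to 5 were higher, the most without p16 WT CTL 2 or p16 KO CTL 8, and 1 to 4 lower, the most without p16 KO CTL 5. The calls of Ror1 and Apod were lost in 8 and 4 of the 16 fits without 1 library.

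Of 30 glutamate receptor and scaffold genes 0 were higher and 2 lower (6.67% called, about the 6.94% of all genes), the AMPA receptor subunits Gria2 (-0.19 ± 0.08, SE) and Gria3 (-0.11 ± 0.04, SE), each lost in 4 of the 16 fits without 1 library, at means of 427 and 163 TPM. Of 30 neuropeptides and receptors 2 were higher (again 6.67%). They were Vip (0.40 ± 0.15, SE), the vasoactive intestinal peptide of interneurons, and the neurotensin receptor Ntsr2. Without 1 library 2 to 4 of these 30 were higher, with 4 without p16 KO RUN 13, and 0 to 1 lower. For the glutamate genes such fits gave 0 to 2 higher and 0 to 3 lower. The call of Vip was lost with the choroid plexus score as a covariate and without the 3 libraries of low nuclear RNA. Of 19 clock genes 1 was higher (5.26%), the repressor Cry1 (0.22 ± 0.07, SE). Of 16 glucocorticoid response genes, 19 immediate early genes and 5 genes of red cells 0 were called, and likewise 0 of the markers of CA1, CA2 and CA3 neurons, endothelium, meninges and neocortex. When the 3 libraries of low nuclear RNA were left out, the counts of lists not yet given that way were 0 of 27 for the p16Ink4a pathway, 1 higher and 1 lower of 18 for chemokine and cytokine receptors, 3 higher and 0 lower of 40 for Wnt genes, 1 lower of 30 for glutamate receptors, 1 higher of 29 for neuropeptides and 0 of 19 for clock genes. Among markers they were 2 higher of 8 for ependyma, 1 higher of 11 for thalamus and habenula, 1 higher and 1 lower of 12 for astrocytes, 1 higher of 12 for endothelium and 0 for mossy cells and interneurons. All these counts are to be read against 5.10% of all genes called in that setting.

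**Figure D4:**
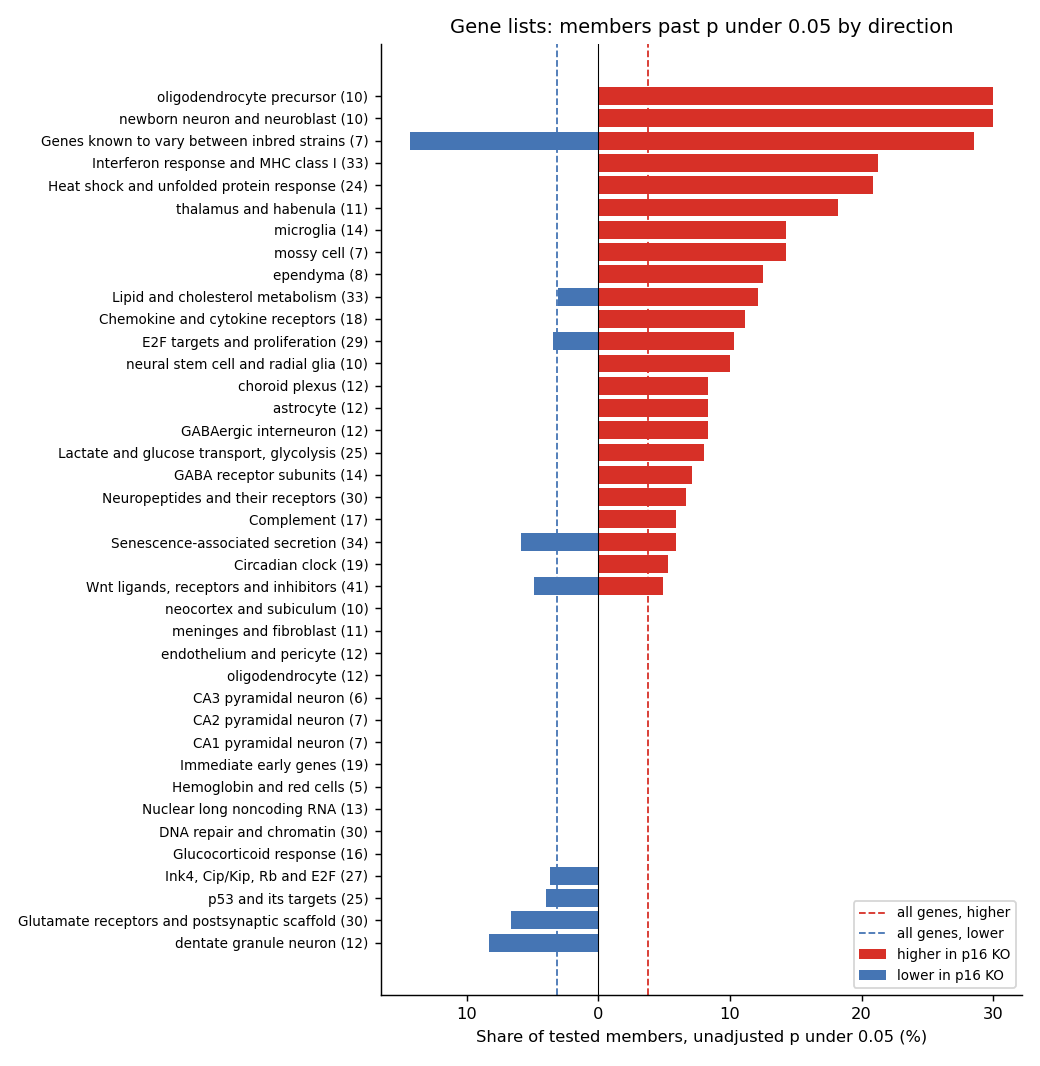
Share of tested members of each gene list with an unadjusted p under 0.05, with genes lower in p16 KO to the left in blue and genes higher to the right in red, the number tested in brackets and dashed lines at the share over all genes (3.80% higher, 3.14% lower). The lists of 10 genes or fewer rest on 3 called genes or fewer, and of the 2 lists above 20% with over 20 genes both lie on the higher side.

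A list of 7 genes whose level is known to vary between inbred mouse strains was checked because the null allele was made in another strain, and 2 of them were higher and 1 lower (42.9% called, against 6.94% of all genes). Without the 3 libraries of low nuclear RNA only Gabra2 of the 3 passed. Gabra2, a GABA-A receptor subunit, was at 71.2, 74.0, 146 and 169 TPM in p16 WT CTL and 134, 228, 239 and 243 TPM in p16 KO CTL, and at 83.0, 91.9, 141 and 223 TPM in p16 WT RUN and 143, 171, 172 and 243 TPM in p16 KO RUN. Values spread widely within a genotype, with p16 WT RUN 12 at the knockout end and p16 KO CTL 8 at the wild-type end (log2 fold change 0.77 ± 0.23 (SE), exact permutation p = 0.0127). Alad, an enzyme of haem synthesis, was at 13.4, 14.2, 20.0 and 21.1 TPM and 17.6, 23.5, 27.5 and 29.2 TPM in sedentary wild-type and knockout libraries, and at 15.6, 15.9, 17.6 and 27.5 TPM and 18.8, 21.2, 22.2 and 24.7 TPM in running ones, with the same 2 libraries at the level of the other genotype (log2 fold change 0.40 ± 0.14 (SE), exact permutation p = 0.0261). Nnt, a mitochondrial transhydrogenase, was lower in p16 KO, at 22.7, 26.3, 27.2 and 30.7 TPM and 12.1, 14.7, 16.2 and 24.7 TPM in sedentary and at 17.4, 22.4, 24.1 and 26.9 TPM and 18.9, 19.1, 19.5 and 22.3 TPM in running mice (log2 fold change -0.40 ± 0.13 (SE), exact permutation p = 0.0184). What part strain background has in these levels was not tested.

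Around the targeted locus more genes were called than elsewhere. Within 10 Mb of Cdkn2a on chromosome 4, 8 of 57 tested genes passed (14.0%), between 10 and 30 Mb 30 of 204 (14.7%), on the rest of chromosome 4 64 of 797 (8.03%) and on all other chromosomes 1100 of 16259 (6.77%). The called genes within 10 Mb were split, 3 higher and 5 lower, and those between 10 and 30 Mb too, 14 higher and 16 lower. Hpdl, chosen after its value was seen, had the smallest p of them. It is a mitochondrial dioxygenase-like protein. It was at 7.23, 9.17, 9.23 and 9.28 TPM in p16 WT CTL and 4.72, 4.80, 5.08 and 5.50 TPM in p16 KO CTL, without overlap. After running it was at 6.56, 8.45, 12.9 and 14.9 TPM in wild-type and 5.48, 6.75, 7.37 and 8.60 TPM in knockout libraries. Its log2 fold change was -0.63 ± 0.14 (SE), and as it was picked by its p, no permutation p is given. Trabd2b, Ror1 and Alad, named elsewhere here, also lie between 10 and 30 Mb from Cdkn2a, as does Cdk5rap2, the 1 of the 44 shared genes found there. Neighbouring genes are not independent of one another, and the flanking alleles and the loss of p16Ink4a cannot be told apart in this design.

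A list of 15 genes that the study named for the sedentary knockout was examined. Of these, 10 passed in the 16-library fit (66.7% called, against 6.94% of all genes). Among them 7 were higher (Eif2ak2, Cd59a, Lpl, Magt1, Slc16a1, Ntsr2 and Rhoq) and 3 lower (Trabd2b, Fas and Gpnmb). Since the study chose them on the sedentary libraries, which make up 8 of the 16, that count is not independent evidence. In running mice, whose libraries the choice did not use, 0 of 15 passed at p under 0.05 in limma, against 3.87% of all genes, and 13 of 15 had the sign they had in sedentary mice. Rgs14, a regulator of G protein signalling that the study also named for the sedentary knockout, was not in that list and is added after its values were seen. Rgs14 was at 87.7 ± 7.10 TPM in p16 WT CTL and 95.2 ± 6.61 TPM in p16 KO CTL, and at 89.9 ± 4.93 TPM in p16 WT RUN and 76.1 ± 8.16 TPM in p16 KO RUN (SD, n = 4). It passed the unadjusted threshold in both treatments with opposite signs (log2 fold change 0.18 in sedentary and -0.24 in running mice). The log2 fold changes of the 15 in running mice were smaller in size than in sedentary mice for all 15, which genes picked for a difference in the sedentary libraries would tend to show, so it is no evidence of an effect of running. Over the 13 libraries other than those of low nuclear RNA, 5 of the 15 were higher and 0 lower over both treatments. That is 33.3% called, against 5.10% of all genes.

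The difference between the treatments itself passed for 5 of the 15 at an unadjusted p under 0.05, against 5.48% of all genes. The choice of the 15 on the sedentary libraries pushes this contrast one way, so the count is a description. Slc16a1, which carries lactate and ketone bodies into cells, was at 16.8, 19.6, 20.4 and 21.4 TPM and 22.0, 26.4, 27.3 and 30.3 TPM in sedentary wild-type and knockout libraries, and at 17.5, 18.5, 21.4 and 21.6 TPM and 20.5, 21.5, 22.0 and 22.3 TPM in running ones (interaction -0.35 ± 0.14, SE, adjusted p = 0.797 in limma). Magt1, a subunit of the oligosaccharyl transferase, was 0.57 in sedentary and 0.14 in running mice, Rhoq, a small GTPase, 0.36 in sedentary and 0.04 in running mice, Btg2, an antiproliferative factor, -0.44 in sedentary and 0.02 in running mice, and Ncstn, nicastrin of the gamma-secretase, -0.15 in sedentary and 0.06 in running mice. For Cd59a, an inhibitor of the complement attack complex, the 4 knockouts were above the 4 wild types in sedentary mice, at 3.44, 5.61, 5.93 and 5.94 TPM against 8.87, 9.45, 9.70 and 14.2 TPM. In running mice they overlapped, at 3.49, 6.26, 9.14 and 9.95 TPM against 7.94, 8.19, 8.28 and 10.2 TPM, with p16 WT RUN 10 and 12 at the knockout level.

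Lpl was at 27.4, 52.6, 78.2 and 107 TPM in p16 WT RUN and 64.6, 69.7, 84.1 and 84.8 TPM in p16 KO RUN, where p16 WT RUN 12 was the highest of the 8. Ntsr2 was 0.42 in sedentary and 0.18 in running mice on the log2 scale, Trabd2b -1.72 in sedentary and -0.59 in running mice, Ccr1, a chemokine receptor, 1.41 in sedentary and 0.46 in running mice, and Tnfrsf1b, the second receptor of tumour necrosis factor, 0.28 in sedentary and 0.17 in running mice. Homer2, a scaffold of metabotropic glutamate receptors, was at 4.57, 14.2, 14.5 and 14.7 TPM in p16 WT CTL, 16.8, 18.7, 19.2 and 21.3 TPM in p16 KO CTL, 5.91, 5.99, 16.4 and 18.4 TPM in p16 WT RUN and 5.09, 14.7, 15.0 and 15.3 TPM in p16 KO RUN. Its values lay in a low cluster of 4 libraries and a high cluster of 12, and the low cluster held 3 wild-type libraries and 1 knockout library.

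**Figure D5:**
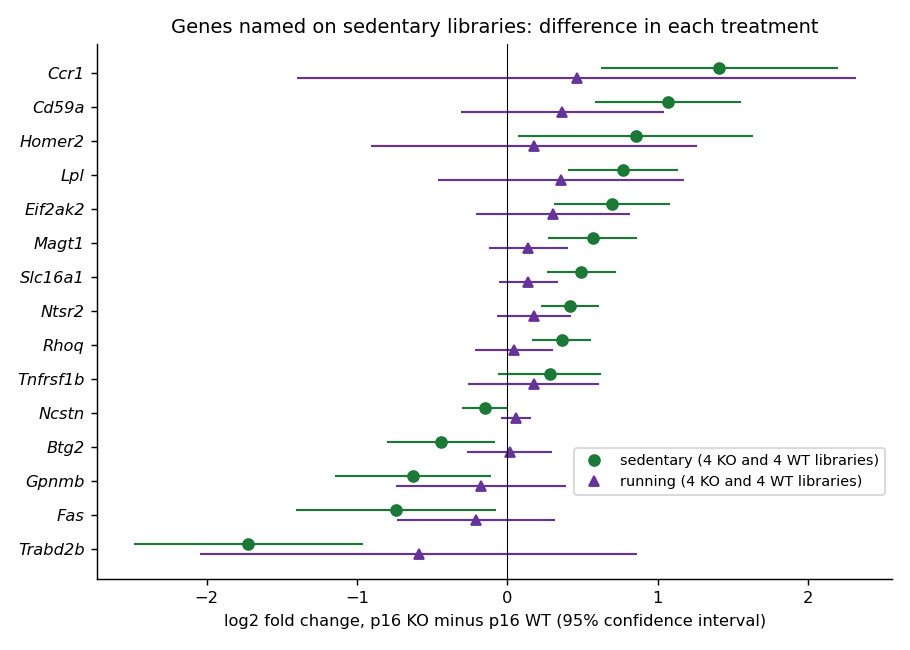
Log2 fold change between p16 KO and p16 WT for 15 genes that the study named from its sedentary libraries, with sedentary mice as green circles and running mice as purple triangles, each with its 95% confidence interval. In running mice all 15 points lie nearer to 0 than in sedentary mice, and every interval includes 0.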

How the data were processed

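RNA of the dentate gyrus was sequenced in 16 libraries, 4 in each of 4 groups, as the labels give them. Per the study's methods and processing notes, the authors masked adapters with Cutadapt 1.11 after bcl2fastq 2.20, trimmed reads with ERNE, aligned them to mm10 with STAR and quantified transcripts with StringTie. The deposited tables give TPM, FPKM (corrected for length and for the fragments of the library, without scaling to a fixed total) and coverage per gene, with no read counts, so sampling error cannot be set for a single gene, and strand settings are not given in the sources used here. The deposited coverage, divided by FPKM, gave the depth of each library. The deposited FPKM entered as an alternative.

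TPM of rows with the same gene name were summed, libraries were scaled by the median ratio to the mean library over 13226 genes (factors 0.920 to 1.03), and log2(scaled TPM + 0.1) was fitted in limma 3.58.1 (R 4.3.3) with genotype and treatment, a variance trend and Benjamini-Hochberg adjustment. Fold changes are on that scale, which understates those of low genes. TPM printed per library, and overlap between groups, are as deposited, before scaling. Sedentary and running mice were also fitted apart, and the interaction was tested. For single genes the two-sided exact permutation test exchanged genotype labels within each treatment (70 by 70, or 4900, splits, smallest p 0.000408). Genes named by rule for their limma p were picked in these same libraries, so their permutation p describes the separation and is not independent. The scripts were tested on simulated data.

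Genes were named by rule, namely the targeted locus, any gene with an adjusted p under 0.05, of which there was none, the 15 higher and 15 lower genes of smallest p among those past p under 0.05 in both treatments with the same sign, up to 4 called members of each gene list with the same sign in both treatments and 15 genes the study named. The remaining 14 of the 44 genes, further called members of a list and members given as not called were named after their values were seen. Members and lists were chosen with earlier results of these data known. Alternatives concerned the pseudocount, the filter, scaling, unit, moderation, weights, duplicate names, covariates and single libraries. Leaving out the 3 libraries of lowest nuclear RNA, and analysing protein-coding genes alone, were chosen after seeing the data. Some genes that these lists or rules would name are not reported here.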

Additional observations from a re-analysis of the deposited data

Results flagged for a closer look

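Of 380 groups of 4 libraries, over 95 genes, 36 held a library whose gap to the nearest of the others exceeded Dixon's 95% critical share of the group's range. Chance alone gives about 1 in 20 for normally distributed values. TPM near 0 are not so distributed, and a library above others all listed at 0 is flagged whatever its value. The number of flags can therefore not be set against that rate. p16 WT CTL 2, of low nuclear RNA, stood apart from its group most often, for Cdkn2a at 0.586 TPM (others 0 to 0.0843), Klk13 at 0.0298 TPM (others listed at 0), Utp14a at 21.6 TPM (others 27.5 to 28.6), Smc5 at 13.3 TPM (others 16.6 to 16.7), Ints1 at 36.3 TPM (others 45.8 to 47.0), Cd59a at 3.44 TPM (others 5.61 to 5.94), Apoe at 5083 TPM (others 3827 to 3975), Fzd7 at 11.8 TPM (others 8.67 to 9.10) and Hpdl at 7.23 TPM (others 9.17 to 9.28). p16 WT RUN 12, whose values were near those of the knockouts for several of these genes, stood apart for Klk13 at 0.209 TPM (others listed at 0), C920025E04Rik at 0.249 TPM (others listed at 0), Snord89 at 4.19 TPM (others 9.59 to 10.2), Cdk1 at 0.0955 TPM (others listed at 0) and Alad at 27.5 TPM (others 15.6 to 17.6). In p16 WT CTL 1 this held for Cxcl16 at 1.15 TPM (others 0.733 to 0.773), Plin3 at 11.1 TPM (others 14.3 to 14.9) and Homer2 at 4.57 TPM (others 14.2 to 14.7). In p16 WT CTL 3 this held for Rsad2 at 1.04 TPM (others 0.626 to 0.656). In p16 WT CTL 4 this held for Cdkn2b at 0.855 TPM (others 1.11 to 1.12). In p16 KO CTL 5 this held for Mir7010 at 0.131 TPM (others 0.00546 to 0.0203) and Canx at 189 TPM (others 282 to 291). In p16 KO CTL 7 this held for Cd59a at 14.2 TPM (others 8.87 to 9.70) and Ror1 at 0.939 TPM (others 2.14 to 2.27). In p16 KO CTL 8 this held for Gabra2 at 134 TPM (others 228 to 243) and Tnfrsf1b at 2.63 TPM (others 3.28 to 3.30). In p16 WT RUN 9 this held for H2-D1 at 42.4 TPM (others 45.8 to 46.2) and Cdkal1 at 14.8 TPM (others 14.0 to 14.0). In p16 WT RUN 10 this held for Canx at 284 TPM (others 178 to 183). In p16 WT RUN 11 this held for Clec7a at 0 TPM (others 0.111 to 0.125). In p16 KO RUN 13 this held for Cdkn2a at 0.413 TPM (others listed at 0). In p16 KO RUN 14 this held for Homer2 at 5.09 TPM (others 14.7 to 15.3). In p16 KO RUN 15 this held for Cd59a at 10.2 TPM (others 7.94 to 8.28), Nnt at 22.3 TPM (others 18.9 to 19.5) and Folr1 at 0 TPM (others 0.572 to 0.627). In p16 KO RUN 16 this held for 2310075C17Rik at 0.136 TPM (others listed at 0) and Cox6a2 at 1.94 TPM (others 3.44 to 3.65).

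The genotype difference itself differed between running and sedentary mice, by the interaction term in limma at an unadjusted p under 0.05, for 10 of the named genes. Magt1, Slc16a1, Rhoq, Ncstn and Btg2 were chosen by the study on the sedentary libraries, which enter this contrast. The adjusted p was 0.797 for each of the 10, and over all genes 949 passed at the unadjusted threshold. Running minus sedentary, on the log2 scale, the difference was positive for Top2a (1.56), Cdk1 (1.54), Ncstn (0.21), Btg2 (0.46) and Eomes (2.07), and negative for Plin3 (-0.48), Apod (-0.74), Slc16a1 (-0.35), Magt1 (-0.43) and Rhoq (-0.32). The proliferation genes Top2a and Cdk1 and the intermediate progenitor factor Eomes were higher in all 4 libraries of p16 KO RUN than in any of p16 WT RUN, and overlapped in sedentary mice. What moved with these differences was not tested.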

How the results depend on the processing

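The log2 fold changes of 94 of the 95 named genes kept their sign under every alternative that gave a value. The exception was Cdkn2b, which was not called and ranged from -0.0081 without p16 WT RUN 12 to 0.176 without p16 WT RUN 11. Over both treatments no gene passed the adjusted threshold with all 16 libraries weighted equally, while with array weights 1 did, Mir1947. Without the 3 libraries of low nuclear RNA, a setting chosen after seeing the data, 2 passed, Mir1947 and Id3, and without 1 library between 0 and 4 did (Klk13, 2310075C17Rik, Mir1947 and Snord89 without p16 WT RUN 12). TPM as deposited gave 425 genes higher and 17 with opposite signs in both treatments. Array weights gave 163 genes of both treatments with the same sign and 79 with opposite signs, with 3809 in sedentary mice and 2899 for the interaction. The nuclear RNA score as a covariate gave 697 genes, 386 higher and 311 lower, 689 with the same sign and 708 in sedentary mice. The choroid plexus score gave 669, 384 higher and 285 lower, 650 with the same sign, 14 in both treatments and 484 in sedentary mice. The oligodendrocyte score gave 68 in both treatments, 54 with opposite signs and 1390 in running mice, and 1 fit with 16 libraries for each treatment gave 2205 in sedentary mice. The causes were not tested.

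Leaving out each library in turn gave 698 to 1860 genes at the unadjusted threshold, 383 to 918 higher, 315 to 942 lower and 687 to 1826 with the same sign. Genes of both treatments ranged from 17 to 139 with the same sign and from 15 to 63 with opposite signs. Sedentary mice alone gave 559 to 3024, running mice 487 to 1041, and the interaction 622 to 2378, with 0 to 1 past the adjusted threshold. The extremes came without p16 KO CTL 7, p16 KO CTL 6, p16 WT CTL 2, p16 WT CTL 3, p16 WT CTL 4, p16 WT RUN 9 and p16 WT RUN 12. Of 87 named genes that were called, 26 lost the call without at least 1 library, 26 with the nuclear RNA score, 24 with the choroid plexus score and 25 without the 3 libraries.

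No paired analysis was possible because the replicate numbers run from 1 to 16 and no number is shared between groups. Without read counts, differences of genes near 0.1 TPM could not be set against counting error.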

Other observations

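Id3, an inhibitor of basic helix-loop-helix factors and a target of bone morphogenetic protein signalling, lay outside the naming rule and was chosen after its values were seen, because it passed the adjusted threshold without p16 WT CTL 2. It was at 47.5, 48.7, 53.8 and 68.2 TPM in p16 WT CTL and 51.5, 55.3, 56.8 and 63.3 TPM in p16 KO CTL, and at 51.9, 52.5, 52.9 and 54.5 TPM in p16 WT RUN and 65.3, 65.8, 72.5 and 78.9 TPM in p16 KO RUN. The running groups did not overlap and the sedentary groups did (log2 fold change 0.27 ± 0.08, SE). As Id3 was chosen after its values were seen, no permutation p is given. p16 WT CTL 2 was the highest sedentary library. On the log2 scale Id3 was 0.13 in sedentary and 0.42 in running mice.

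The medians of markers of CA1 pyramidal neurons and of mature oligodendrocytes had opposite signs in the 2 treatments. All 7 CA1 markers had a positive log2 fold change over 16 libraries, with a median of 0.60 in sedentary and -0.26 in running mice, and 0 of them passed. Without 1 library their median over both treatments was between -0.03 and 0.30. For 12 oligodendrocyte markers the medians were 0.33 and -0.19. Of 11 markers of meninges and fibroblasts 10 had a positive log2 fold change and 0 passed, with medians of 0.19 in sedentary and 0.26 in running mice.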
